A study of Homo sapiens with 12 samples.

Results

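The 4 transcripts described here belong to cellular iron handling: FTH1 (ENST00000273550) and FTL (ENST00000331825), which encode the heavy and light subunits of ferritin, and IREB2 (ENST00000258886) and ACO1 (ENST00000309951), which encode the iron regulatory proteins IRP2 and IRP1. They were chosen by transcript identifier, by a rule that uses no measured value, though earlier results of these data were known. They are 4 of the 18338 transcripts with a count in at least 1 of the 12 libraries. TFRC, the transferrin receptor, was the fifth gene of the set and was not analysed here, so no contrast of 5′ with 3′ iron-responsive elements was made. Each library was made from wild-type HEK293T, a transformed human embryonic kidney line, and carries the treatment label GSK-A1, a compound that blocks PI4KA, a lipid kinase that makes phosphatidylinositol 4-phosphate. Footprints of ribosomes (RPF), cut by RNase I from the monosome and polysome fractions, and poly(A) RNA (mRNA) were each sequenced at 0, 60 and 360 min, with 2 replicates of each of the 6 combinations. Only the time in the titles marks the 0 min libraries as untreated, and no vehicle group enters the comparisons. The labels do not say whether replicates came from separate cultures, so p-values measure the spread between these libraries, which may be technical. The identity of the cells was not checked against marker genes, since the tables used here pair no symbol with a transcript identifier.

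Ferritin is a hollow shell of heavy and light subunits that stores iron in the cytosol; the heavy subunit oxidises the incoming iron and the light subunit helps to form the mineral core. Both ferritin mRNAs carry an iron-responsive element, a short hairpin, in the 5′ untranslated region. When iron is scarce, IRP1 or IRP2 binds this hairpin and blocks recruitment of the small ribosomal subunit, so that ferritin mRNA is present but little translated. The same proteins bind hairpins in the 3′ untranslated region of the transferrin receptor mRNA and protect it from decay. IRP1 is bifunctional: with an iron-sulfur cluster it is the cytosolic aconitase, and without it binds RNA. IRP2 is removed by the proteasome when iron is plentiful.

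The hairpin of FTL lies close to the start of the transcript, and its loop is shown because iron regulatory proteins act on ferritin translation through it. In the RefSeq promoter table (GRCh38.p14) the stretch from base 21 to base 50 of the FTL transcript is on the plus strand at chr19:48965329-48965358, written 5′ to 3′ as DNA with the 6 bases of the loop in capitals.
FTL: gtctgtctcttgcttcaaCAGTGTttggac
The motif searched, on both strands, was a C, any 5 bases and then the loop CAGTGN (N is any base), with 5 base pairs (G-T allowed) closing the loop. FTL held it at bases 33 to 49, on the transcribed strand. In the first 50 transcribed bases, 8 of 35116 promoter windows (0.0228%) held it on that strand, and 76 (0.216%) held it on either strand of the whole 300 bases. The letters without the pairing requirement were in 6491 windows (18.5%) on either strand. The windows of IREB2 and ACO1 did not hold these letters. A window covers 250 bases before the start and the first 50 transcribed bases, so the rest of a transcript was not searched. FTH1 had no window in the promoter table, so it was not searched. A match describes letters and does not show that a protein binds.

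Library totals ran from 429026 to 1165740 counts, and levels are given as CPM, counts scaled to a common library size by trimmed mean of M-values. Transcript length was not used, so levels are not compared between genes. RPF 360 min replicate 2 was the RPF library least like the others, with a median correlation of 0.857 with the other 5, against 0.902 to 0.937 for those. The mRNA libraries ranged from 0.820 to 0.905 on the same measure. All 4 transcripts were counted in all 12 libraries and passed the filter on low counts in both assays. FTH1 rested on 38 to 267 counts per library, FTL on 24 to 208, IREB2 on 106 to 479 and ACO1 on 7 to 46. The authors' treatment of multiply mapping reads is not given in the sources used here, and ferritin has many near-identical processed pseudogenes, so the FTH1 and FTL counts are uncertain to that extent.

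Footprints of both ferritin subunits were low relative to their mRNA, with groups that did not overlap on the CPM scale. FTH1 RPF were at 66.4 and 106 CPM at 0 min, 88.7 and 88.0 CPM at 60 min, and 95.1 and 71.0 CPM at 360 min, for replicates 1 and 2. FTH1 mRNA was at 224 and 162 CPM at 0 min, 203 and 247 CPM at 60 min, and 199 and 222 CPM at 360 min. The highest of the 6 RPF values lay below the lowest of the 6 mRNA values, and within either assay each later time overlapped 0 min. For FTL, RPF were at 48.9 and 83.1 CPM at 0 min, 60.6 and 54.8 CPM at 60 min, and 33.6 and 54.2 CPM at 360 min. FTL mRNA was at 144 and 88.8 CPM at 0 min, 165 and 192 CPM at 60 min, and 199 and 110 CPM at 360 min. Here too the 6 RPF values, which reached 83.1 CPM, did not overlap the 6 mRNA values, which began at 88.8 CPM. That FTL gap depended on the scaling: with CPM scaled by library totals alone, RPF 0 min replicate 2 was at 92.4 and mRNA 0 min replicate 2 at 84.7, so the assays overlapped. On the same scale FTH1 RPF reached 118 and its mRNA began at 154, with no overlap. Of all 8632 transcripts tested in both assays, 6.09% had every RPF value below every mRNA value.

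**Figure D1:**
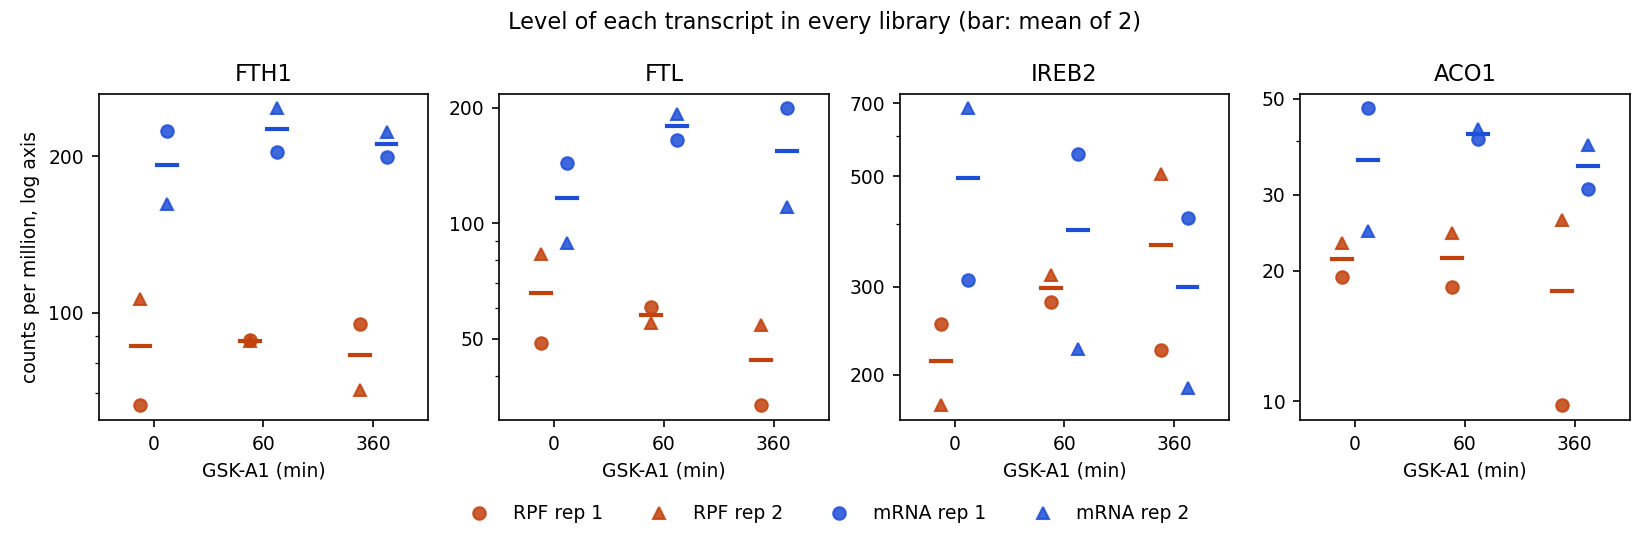
Level of each transcript (y axis, CPM, log scale, a separate scale in each panel) at 0, 60 and 360 min of GSK-A1 (x axis), with RPF in orange and mRNA in blue, circles for replicate 1, triangles for replicate 2 and bars for the mean of 2. All FTH1 RPF values (66.4 to 106) lie below all FTH1 mRNA values (162 to 247), and the same holds for FTL on this scale but not with library totals alone (92.4 in RPF against 84.7 in mRNA, both 0 min replicate 2). The assays overlap for IREB2 and ACO1.

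The iron regulatory proteins were less uniform. IREB2 RPF were at 253 and 174 CPM at 0 min, 280 and 317 CPM at 60 min, and 224 and 505 CPM at 360 min. IREB2 mRNA was at 310 and 683 CPM at 0 min, 553 and 226 CPM at 60 min, and 412 and 188 CPM at 360 min. The mRNA replicates of IREB2 differed by more than the means of the 3 times, and the replicate with the higher value was the second at 0 min and the first at 60 and 360 min. ACO1 was the least abundant in counts: its RPF were at 19.4 and 23.3 CPM at 0 min, 18.4 and 24.5 CPM at 60 min, and 9.79 and 26.2 CPM at 360 min. ACO1 mRNA was at 47.5 and 24.8 CPM at 0 min, 40.4 and 42.6 CPM at 60 min, and 30.9 and 39.1 CPM at 360 min. For both transcripts the RPF and mRNA values overlapped.

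The baseline comparison set the scaled level of each transcript in RPF against that in mRNA at 0 min. Each assay was scaled separately, so a ratio is relative to the bulk of transcripts and is not footprints per mRNA molecule. The log2 ratio of RPF to mRNA was −1.16 (SE 0.367) for FTH1, which is 0.447 on the linear scale, and −0.83 (SE 0.424) for FTL, or 0.564. For the transcripts of the regulatory proteins it was −1.23 (SE 0.594) in IREB2 and −0.77 (SE 0.481) in ACO1. These 4 ratios had a median of −0.99, where the median of the 8632 transcripts tested was 0.12 and their 5th to 95th percentile ran from −1.82 to 1.67. From the lowest, FTH1 stood at percentile 12.2, FTL at 18.8, IREB2 at 11.1 and ACO1 at 20.3 of all transcripts. All 4 transcripts had both RPF values below both mRNA values at 0 min, as did 25% of all transcripts. With library totals alone FTH1 and IREB2 stayed apart, FTL overlapped (92.4 in RPF above 84.7 in mRNA) and so did ACO1 (25.9 above 23.6). In edgeR's quasi-likelihood test none of the 4 passed an adjusted p-value of 0.05, with FTH1 nearest at 0.054 and the others at 0.203 (FTL), 0.179 (IREB2) and 0.293 (ACO1). In the same test 11.1% of all transcripts passed, 3.93% in the direction of low footprints. In edgeR's test FTH1 had an unadjusted value of 0.00666 and the other 3 were above 0.05, where 30.3% of all transcripts were below it. FTH1 passed with DESeq2 (adjusted p = 0.044), with scaling over the 12 libraries together (edgeR adjusted p = 0.0467) and among transcripts with at least 10 counts in every library (edgeR adjusted p = 0.0408). FTH1 did not pass with RLE size factors (edgeR adjusted p = 0.0559), library totals alone (0.089) or no filter on low counts (0.136). Nor did it pass with the replicate block (edgeR adjusted p = 0.0575) or the 0 min libraries alone (0.076). Its adjusted p was 0.0823 to 0.358 with 1 of the 4 libraries of 0 min left out. The ratios themselves then ranged from −1.57 to −0.83 for FTH1, −1.29 to −0.43 for FTL, −1.67 to −0.56 for IREB2 and −1.18 to −0.21 for ACO1.

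At the later times the ferritins kept low ratios. At 60 min the log2 ratio was −1.34 (SE 0.368) for FTH1 and −1.62 (SE 0.429) for FTL, which passed edgeR's test (adjusted p 0.0301 and 0.026). At 360 min it was −1.39 (SE 0.376) and −1.88 (SE 0.453), which also passed (edgeR adjusted p 0.0248 and 0.0142). FTL then stood at percentile 3.53 and FTH1 at 7.16 of all transcripts. At either time 2 of the 4 transcripts passed, both as low in footprints. Of all transcripts 13.3% passed at 60 min, 4.18% as low, and 14.6% passed at 360 min, 5.46% as low. ACO1 had −0.95 (SE 0.480) at 60 min and −1.06 (SE 0.538) at 360 min and did not pass (edgeR adjusted p 0.206 and 0.204). IREB2 had −0.40 (SE 0.587) at 60 min and 0.21 (SE 0.593) at 360 min, where it stood at percentile 52.2. The ferritin calls at a single time rested on 2 libraries in each assay: FTH1 lost its call whichever of the 4 libraries of 60 or 360 min was left out (edgeR adjusted p from 0.0715 to 0.185), while its ratio stayed between −1.43 and −1.21 at 60 min and between −1.59 and −1.19 at 360 min. FTL lost it for each library of 60 min (0.0829 to 0.158) and for RPF replicate 1 (0.130) and mRNA replicate 1 (0.112) of 360 min, with ratios of −1.68 to −1.52 at 60 min and −2.30 to −1.41 at 360 min. The IREB2 value at 360 min was −0.47 without RPF replicate 2, and −0.29 without mRNA replicate 2.

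**Figure D2:**
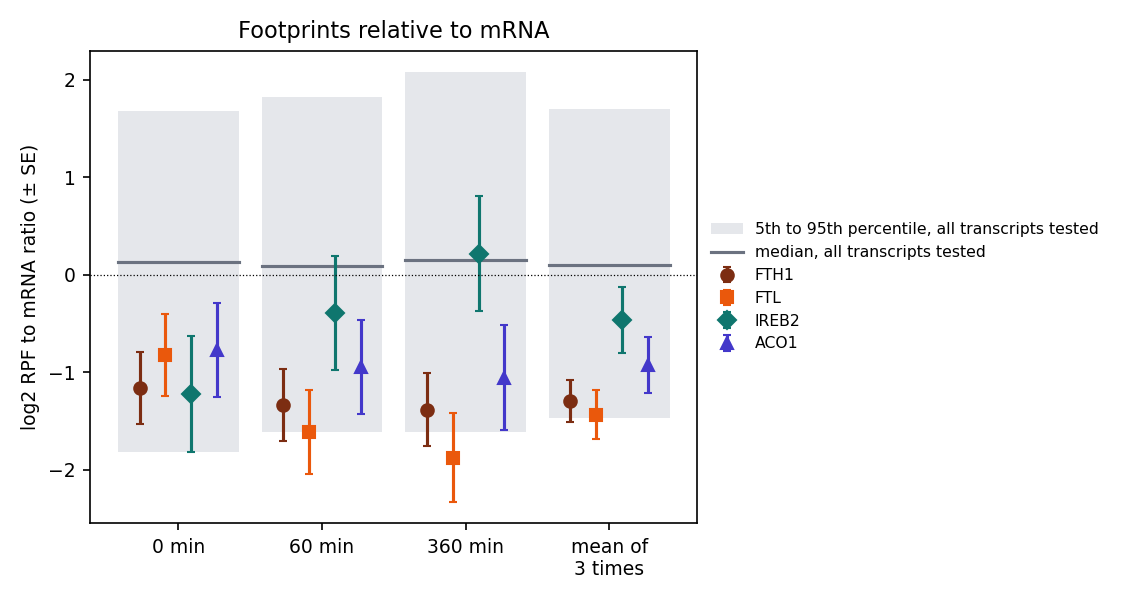
Log2 ratio of RPF to mRNA (y axis, ± SE of the edgeR fit) for the 4 transcripts at each time and as the mean of the 3 times (x axis), over the 5th to 95th percentile (grey) and median (grey line) of the 8632 transcripts tested. FTH1 and FTL lie below 0 throughout and reach −1.30 and −1.44 over the 3 times, while IREB2 runs from −1.23 at 0 min to 0.21 at 360 min with SE near 0.59.

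Taking the mean ratio over the 3 times used all 12 libraries and narrowed the errors. The log2 ratio was −1.30 (SE 0.214) for FTH1, 0.407 on the linear scale, with an edgeR adjusted p of 0.000326. For FTL it was −1.44 (SE 0.251), or 0.368, with an edgeR adjusted p of 0.000486. ACO1 had −0.93 (SE 0.289), or 0.526, with an edgeR adjusted p of 0.0193. IREB2 had −0.47 (SE 0.340), with an edgeR adjusted p of 0.285. So 3 of 4 passed as low in footprints, where 41.1% of all transcripts passed and 16.4% passed in that direction. FTL stood at percentile 5.35, FTH1 at 6.87, ACO1 at 13.2 and IREB2 at 26.6 of all transcripts. With each of the 12 libraries left out in turn, the ratio of FTH1 stayed between −1.45 and −1.17 and that of FTL between −1.61 and −1.29, with edgeR adjusted p-values of at most 0.00329. The call of ACO1 was lost without RPF 0 min replicate 1 (edgeR adjusted p = 0.0584), RPF 60 min replicate 1 (0.0654), RPF 360 min replicate 1 (0.0717) or mRNA 0 min replicate 1 (0.0757). This mean was added after the values at single times had been seen. The counted region of the transcripts is not given in the sources used here, so a ratio compares counts and not ribosomes per coding base.

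Whether the ferritins differed in this respect from the regulatory proteins was tested within libraries, which needs no scaling. For each of the 6 pairs of genes, the log2 ratio of their counts in the 6 RPF libraries was compared with that in the 6 mRNA libraries by an exact two-sided permutation of the assay labels within each time. This design has 216 arrangements, and the smallest p it can give is 0.00926. The count ratio of FTH1 to FTL had a median of 1.41 (range 1.28 to 2.83) in RPF and 1.42 (1.00 to 2.02) in mRNA. Its log2 difference between assays was 0.13 (exact permutation p = 0.611), so the subunit ratio did not differ beyond the spread of the libraries. FTH1 to IREB2 was lower in RPF (median 0.297) than in mRNA (median 0.602) by 0.92 on the log2 scale, with an exact permutation p of 0.0741. FTL to IREB2 had medians of 0.183 in RPF and 0.474 in mRNA, a log2 difference of −1.05 (exact permutation p = 0.0926). Without RPF 360 min replicate 2 the difference was −0.70 for FTH1 to IREB2 and −0.88 for FTL to IREB2. Against ACO1 the log2 differences were −0.37 for FTH1 and −0.49 for FTL, with exact permutation p-values of 0.269 and 0.0833. IREB2 to ACO1 differed by 0.56 (exact permutation p = 0.296). Adjusted over the 6 pairs, the smallest p was 0.185, so no pair passed.

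By time, the difference for FTL to IREB2 was 0.31 at 0 min, −1.38 at 60 min and −2.07 at 360 min, and for FTH1 to IREB2 it was −0.04, −1.10 and −1.63. At 0 min, then, the ferritins and IREB2 had similar point estimates, with replicates that crossed: FTH1 to IREB2 was 0.263 and 0.611 in RPF, and 0.722 and 0.237 in mRNA. At 360 min FTL to IREB2 was 0.150 and 0.107 in RPF, and 0.483 and 0.585 in mRNA. FTH1 to IREB2 at 360 min was 0.425 and 0.141 in RPF, and 0.483 and 1.18 in mRNA, so replicate 1 was close between assays. These differences at single times were not tested.

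**Figure D3:**
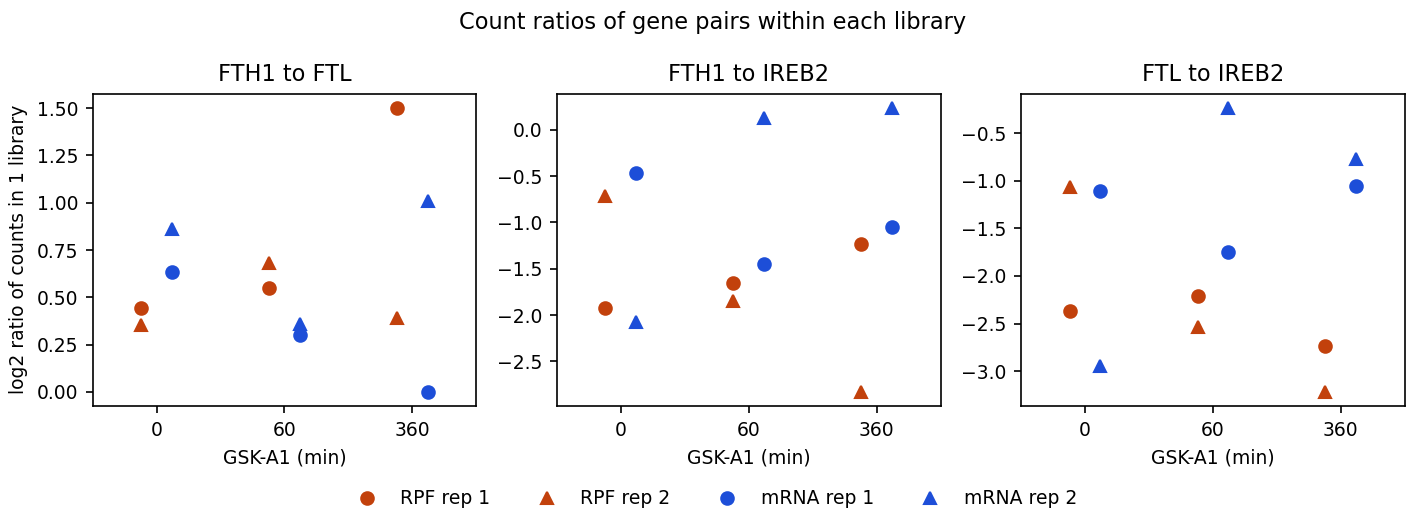
Log2 ratio of the counts of 2 genes in the same library (y axis) at 0, 60 and 360 min of GSK-A1 (x axis), for FTH1 to FTL, FTH1 to IREB2 and FTL to IREB2, with RPF in orange, mRNA in blue, circles for replicate 1 and triangles for replicate 2. For FTL to IREB2 at 360 min the RPF count ratios are 0.150 and 0.107 and the mRNA ratios 0.483 and 0.585. For FTH1 to IREB2 at 360 min they are 0.425 and 0.141 in RPF and 0.483 and 1.18 in mRNA. No pair passed the test over all times, in which a pair differing alone could not pass after adjustment.

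Changes over the time course were tested next, as later time against 0 min in each assay. None of the 4 transcripts passed in RPF or in mRNA at 60 or 360 min in edgeR's quasi-likelihood test, and 0% of all transcripts did (0 of 9653 in RPF and 0 of 9693 in mRNA). Without adjustment, 0 of the 4 had p under 0.05 in either assay, and of all transcripts 2.31% (60 min) and 3.91% (360 min) did in RPF and 1.37% and 8.92% in mRNA. FTH1 footprints had log2 changes of 0.037 (SE 0.376) at 60 min and −0.046 (SE 0.381) at 360 min. Its mRNA changes were 0.22 (SE 0.399) and 0.13 (SE 0.403). FTL had RPF changes of −0.18 (SE 0.405) and −0.60 (SE 0.422), and mRNA changes of 0.62 (SE 0.444) and 0.40 (SE 0.451). Both FTL mRNA values at 60 min lay above both at 0 min, as was the case for 13.4% of all transcripts. At 360 min the edgeR unadjusted p for FTL in RPF was 0.175, and the change ran from −0.97 to −0.20 with 1 replicate left out.

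IREB2 had point estimates of the sign opposite to those of FTL. Its RPF log2 changes were 0.48 (SE 0.459) and 0.77 (SE 0.461) and its mRNA changes −0.35 (SE 0.620) and −0.73 (SE 0.626). Both IREB2 RPF values at 60 min (280 and 317 CPM) lay above both at 0 min (253 and 174 CPM), as for 15.2% of all transcripts. Without RPF 360 min replicate 2, the IREB2 RPF change at 360 min was 0.060, and without RPF 360 min replicate 1 it was 1.2 (edgeR unadjusted p = 0.0119, adjusted p = 0.234). Replicate 1 (224 CPM) lay between the 0 min values and replicate 2 (505 CPM) above both. ACO1 had RPF changes of 0.0028 (SE 0.543) and −0.29 (SE 0.567) and mRNA changes of 0.19 (SE 0.438) and −0.041 (SE 0.466). The RPF changes of the 4 had a median of 0.020 at 60 min and −0.17 at 360 min, where all transcripts had −0.0097 and 0.024. In mRNA these medians were 0.21 and 0.044, against −0.017 and −0.033 for all transcripts.

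The change of the RPF to mRNA ratio with time came from the interaction term for assay and time, and 0% of the 8632 transcripts passed. FTL had log2 changes in ratio of −0.79 (SE 0.598) at 60 min and −1.05 (SE 0.615) at 360 min. The unadjusted edgeR p was 0.206 and 0.109, and 1.00 and 0.862 after adjustment. It stood at percentile 8.64 and 6.61 of all transcripts. IREB2 had 0.83 (SE 0.830) and 1.44 (SE 0.837), with edgeR unadjusted p-values of 0.333 and 0.107, and stood at percentile 89.8 and 91.7. FTH1 had −0.18 (SE 0.514) and −0.22 (SE 0.520), and ACO1 had −0.18 (SE 0.681) and −0.29 (SE 0.720), all within 1 SE of 0. None of the 4 passed even unadjusted, where 1.75% and 5.66% of all transcripts had a p-value under 0.05. The SE of these changes in ratio ran from 0.514 to 0.837. With 1 library left out, the FTL change at 360 min ranged from −1.47 to −0.52 and that of IREB2 from 0.77 to 2.15. Both changes of a transcript use the same 0 min libraries and are not independent.

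**Figure D4:**
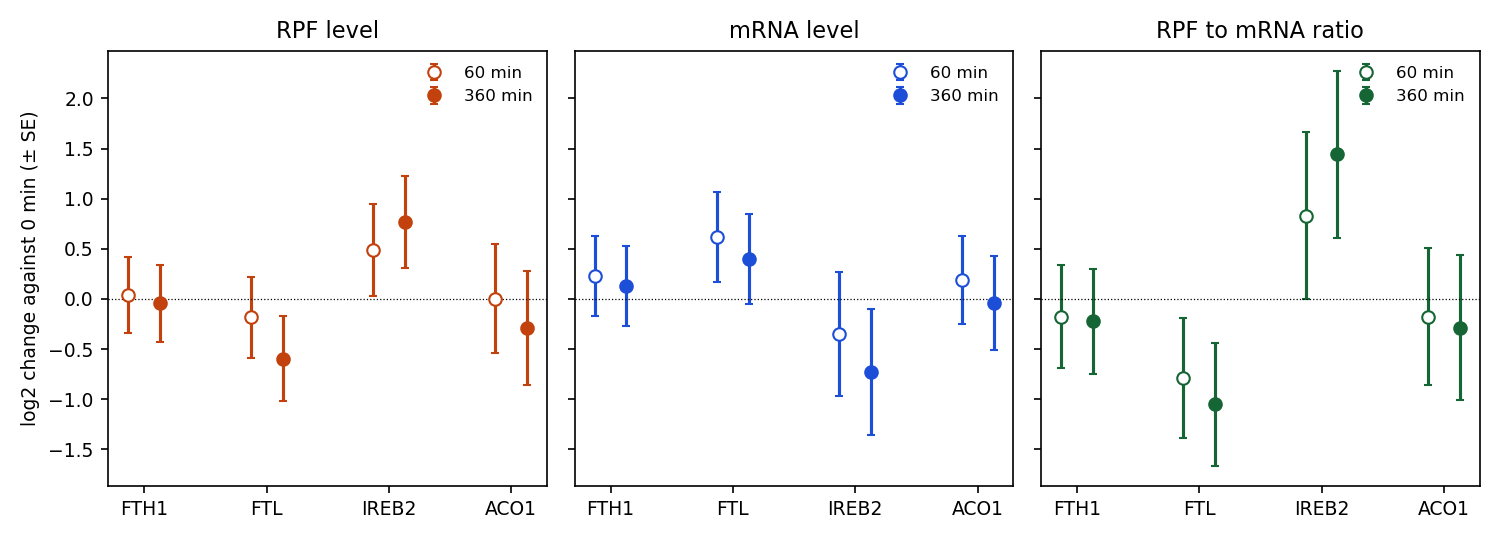
Log2 change against 0 min (y axis, ± SE of the edgeR fit) for each transcript (x axis) in RPF level, mRNA level and RPF to mRNA ratio, with open circles for 60 min and filled circles for 360 min. FTH1 and ACO1 lie within 1 SE of 0 in all panels, FTL has ratio changes of −0.79 and −1.05, and IREB2 has 0.83 and 1.44 with the widest errors.

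Among the 4243 transcripts with at least 10 counts in every library, ENST00000222305 (r = 0.967) and ENST00000298569 (r = 0.965) had log2 CPM patterns most like that of FTH1 over the 12 libraries. These correlations are descriptions, and their 12 points share libraries and the difference between assays. No symbol was paired with these identifiers, and the other iron genes planned for description (FTMT, NCOA4, FBXL5, PCBP1, SLC11A2 and SLC40A1 among them) were not analysed here for the same reason.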

How the data were processed

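The values deposited by the authors are whole-number counts for Ensembl transcripts, 1 file for each of the 12 libraries, per the file headers. Transcripts not listed in a library were set to 0. The submitters' processing notes name cutadapt 2.8, Bowtie 1.2.3 and STAR 2.7.10a with no role. Genome build, annotation, counting program, counted region and use of strand are not given in the sources used here. Gene names of the 4 transcripts came with the set. Times, assays and replicates were taken from the sample titles.

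The analysis used edgeR 4.0.16 under R 4.3.3: filterByExpr, trimmed mean of M-values within each assay after the filter, and the quasi-likelihood test with Benjamini-Hochberg adjustment over all transcripts at 0.05. RPF and mRNA changes came from the 6 libraries of an assay. Ratios and their changes came from one fit of 12 libraries with a term for each combination of assay and time. The SE is the log2 value over the square root of F. The code was tested on simulated data. Alternatives were other scalings and filters, fits of the compared libraries alone, DESeq2 1.42.0, a replicate block and leaving out replicates. Ratios at 60 and 360 min, their mean over times, the paired count ratios and the crossed block were added after the data were seen. The transcripts and lists were chosen with earlier results of these data known. The named transcripts are all analysed members of the set, which leaves out TFRC, plus the 2 whose pattern was most like FTH1. Replicates differed beyond counting noise (chi-square per degree of freedom 16.9 to 34.8), so each counted once.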

Additional observations from a re-analysis of the deposited data

How the results depend on the processing

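Depth limits ACO1 most, with 7 to 46 counts per library. Counts of transcripts past an adjusted p of 0.05 changed as follows. For RPF at 60 and 360 min against 0 min the count was 0; it was 1 at 60 min without a filter, 1 and 1 with DESeq2, and 0 to 1 at each time with 1 replicate left out. With the replicate block it was 1 and 2. For mRNA the count was 0, and without a filter 17 and 89; DESeq2 gave 21 at 360 min. For the change in ratio it was 0, and 3 and 38 without a filter. The baseline count of 954 became 2096 without a filter and 0 to 437 with 1 library of 0 min left out. The ratio counts at 60 and 360 min (1151 and 1259) became 1905 at 60 min without a filter, 745 and 749 with at least 10 counts in every library, 466 at 360 min with the compared libraries only, and 291 to 587 and 480 to 1241 with 1 library left out. Over the 3 times, 3546 of 8632 became 1997 of 4243 with at least 10 counts in every library, where fewer transcripts were tested.

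Among the 4 transcripts, small changes turned sign. The FTH1 RPF change at 60 min was −0.022 with library totals alone and −0.0094 without a filter. For ACO1 it was −0.028 and −0.048, and −0.00020 with the replicate block. The FTH1 mRNA change at 360 min was −0.031 with library totals alone and −0.019 with at least 10 counts in every library. Leaving out 1 replicate gave these ranges of log2 change. In RPF at 60 min they were −0.26 to 0.43 (FTH1), −0.51 to 0.26 (FTL) and −0.19 to 0.20 (ACO1), and at 360 min −0.35 to 0.31 (FTH1) and −1.12 to 0.26 (ACO1). In mRNA at 60 min they were −1.11 to 0.32 (IREB2) and −0.20 to 0.77 (ACO1), and at 360 min −0.092 to 0.43 (FTH1), −0.067 to 0.84 (FTL) and −0.44 to 0.55 (ACO1). For the change in ratio they were −0.48 to 0.22 (FTH1) and −0.73 to 0.22 (ACO1) at 60 min, and −0.53 to 0.15 (FTH1) and −1.09 to 0.27 (ACO1) at 360 min. The IREB2 ratio ranged from −0.90 to 0.46 at 60 min and −0.47 to 0.88 at 360 min. None of these values passed the threshold, and the cause was not tested. FTH1 lost its call at 60 and 360 min without a filter (edgeR adjusted p = 0.0526 and 0.0558) and at 360 min with the 4 libraries of that time alone (0.139). Scaling over the 12 libraries together moved the median ratio of all transcripts by −0.12 at 0 min; library totals alone moved the RPF and mRNA medians at 360 min by −0.14 and −0.15.

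Same-numbered RPF libraries deviated together, with correlations of 0.34 to 0.36 between the RPF times. Same-numbered mRNA libraries did so only for 60 with 360 min (0.40). The mRNA correlations were negative for 0 with 60 min (−0.48) and 0 with 360 min (−0.15). Between RPF and mRNA of the same time the correlation was −0.14 at 0 min, 0.010 at 60 min and −0.33 at 360 min. With 2 numbers and no label saying what a number marks, the numbers were not treated as a pairing. The replicate block, fitted within each assay, changed no call of the 4 transcripts. A block crossed for the 0 min mRNA libraries called 0 transcripts at 60 min and 0 at 360 min.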
